A study of Mus musculus with 12 samples.

Results

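The refeeding response of wild-type mouse liver was measured by RNA-Seq as the difference between 3 livers taken after a 16-hour fast (fasted *Lpin1*+/+, the libraries labelled wild type) and 3 livers taken 5 hours after chow was returned to fasted mice (refed *Lpin1*+/+). These 6 libraries were chosen by their labels from the 12 of the series, and the response is described across the 11507 of 22456 genes that had a mean of at least 0.5 RPKM (reads scaled to gene length and to the reads mapped in the library) over the 12 libraries. The other 6 libraries are 3 fasted and 3 refed livers of *Lpin1*-/- littermates, which carry the *fld* (fatty liver dystrophy) mutation of *Lpin1*, the gene of the phosphatidic acid phosphatase and transcriptional coregulator lipin 1. All mice were males of the BALB/cByJ strain, 2 to 8 months old, and each library is 1 liver. The mice fasted overnight, singly caged, at 18 to 20 °C, and were refed from the morning, so that feeding state and time of day cannot be told apart in this comparison.

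In liver, a meal raises insulin and portal nutrients, which favor glucose uptake, glycogen and lipid synthesis, and protein synthesis, while glucagon and glucocorticoids of the fast favor gluconeogenesis, fatty acid oxidation, ketogenesis, and amino acid catabolism. Cholesterol synthesis is governed by SREBP-2, a transcription factor held in the endoplasmic reticulum (ER) and released to the nucleus when sterols are low. The ER is also where the liver folds and glycosylates the plasma proteins that it secretes. When unfolded proteins accumulate there, the unfolded protein response, through the factors ATF6, XBP1, and ATF4, raises the genes of chaperones, folding enzymes, and degradation of misfolded proteins.

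Among the 6 libraries, refed replicate 2 and fasted replicate 1 stood apart. Log2(RPKM + 1) values of refed replicate 2 correlated with those of the other 5 libraries across genes at 0.899 to 0.944 (genes are not independent replicates), and the other 5 correlated with each other at 0.942 to 0.990, lowest for fasted replicates 1 and 2. Markers of Kupffer cells and macrophages summed to 271, 196, and 406 RPKM in fasted replicates 1, 2, and 3 and to 185, 980.0, and 113 in refed replicates 1, 2, and 3. Neutrophil markers summed to 135, 17, and 10.1 RPKM in fasted and 14.1, 99.4, and 4.76 in refed libraries, and those of T and NK cells to 3.22, 4.69, and 7.02 and 2.25, 33.6, and 1.57. Refed replicate 2 was thus highest for macrophage and T cell markers, and fasted replicate 1 for neutrophil markers, followed by refed replicate 2. Fasted replicate 1 was also highest for B cell markers (77.4, 14.9, and 21.3 RPKM in fasted and 9.99, 12.8, and 7.34 in refed libraries) and for markers of proliferating cells (24.1, 2.66, and 1.79 and 1.01, 8.89, and 1.17). Of the 11 Kupffer cell, 6 neutrophil, and 6 T and NK cell markers that were tested, none passed the test between refed and fasted liver, with 1, 1, and 0 at an unadjusted p under 0.05. The 10 hepatocyte markers, which include albumin and *Apoa1*, summed to 89281, 84527, and 75310.1 RPKM in fasted and 61792, 52816, and 79327 in refed libraries, so that the livers held hepatocyte transcripts as labelled and the groups overlapped. The pancreatic acinar markers *Prss1*, *Prss2*, and *Pnlip* were listed at 0 in all 6 libraries. In bulk tissue, fewer cells of a type and less RNA per cell cannot be told apart. The labels give about 150000000 reads per library, and the RPKM table no totals. Steps between the lowest values put the relative depth of the 12 libraries at 0.868 to 1.16, and the 13 mitochondrially encoded genes were listed at 0 in all of them.

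**Figure D1:**
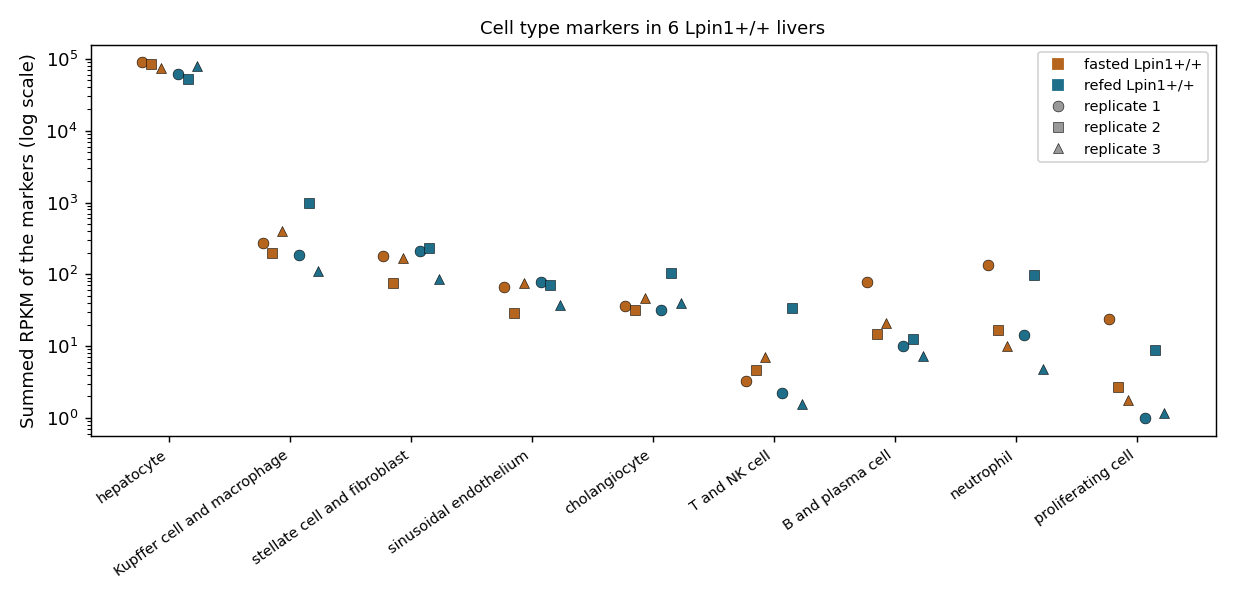
Summed RPKM of cell type markers (log scale) in each of the 6 libraries, with color for feeding state and shape for replicate number. Refed replicate 2 lies above all others for macrophage markers at 980.0 RPKM and for T and NK cell markers at 33.6, and fasted replicate 1 lies above all others for neutrophil markers at 135 and B cell markers at 77.4.

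Refeeding altered 198 of the 11507 genes (1.72%) in *Lpin1*+/+ liver at an adjusted p under 0.05 (limma with Benjamini-Hochberg adjustment, as for every adjusted p here). Of these, 175 rose (1.52% of genes tested) and 23 fell (0.200%). At an unadjusted p under 0.05 were 1594 of the 11507 genes, the background for such counts in the lists. Values of refed and fasted livers did not overlap for any of the 198 genes, and for 18.1% of all genes tested. Among the rises, 122 of 175 had a log2 fold change of at least 1, and the highest were those of *Creld2*, *Sdf2l1*, and *Derl3*, all genes of the ER. The largest falls were those of the metallothionein gene *Mt2*, the fatty acid elongase gene *Elovl3*, and *Mt1*. All genes tested had a median log2 fold change of 0.19, with 8344 of them (72.5%) above 0. Median ratio scaling, which divides each library by 1 factor so that the typical gene has the same level in all, brought that median to within 0.01 of 0 and left 50 altered genes (0.436% of 11459), of which 32 rose and 18 fell, so that the share of rises went from 88.4% to 64.0%. All 198 genes kept their direction under this scaling, 45 of them past the threshold. A fit of the 6 *Lpin1*+/+ libraries alone called 0 genes (lowest adjusted p = 0.0705, 1151 genes at an unadjusted p under 0.05, the 198 among them). The count depended on single mice. It was 23 without fasted replicate 2, 62 without fasted replicate 3, 43 and 35 without refed replicates 1 and 3, and 101 and 88 without refed *Lpin1*-/- replicates 2 and 3, which enter through the shared estimate of the spread. Leaving out fasted replicate 1 or refed replicate 2, which stood apart, gave 199 and 137 genes, and leaving out both 152.

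**Figure D2:**
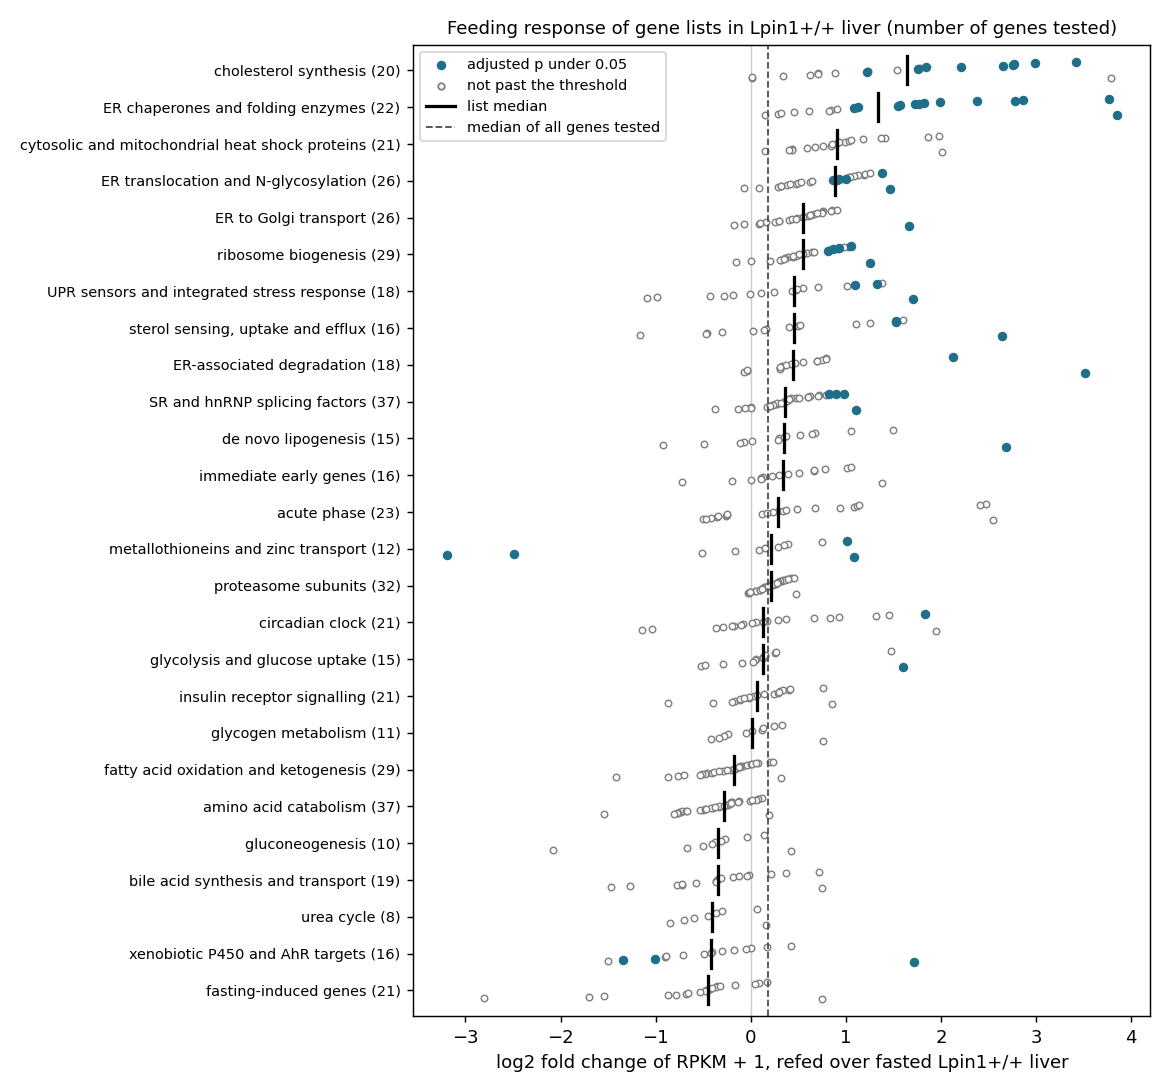
Log2 fold change of RPKM + 1, refed over fasted *Lpin1*+/+ liver, for the genes of 26 pathway lists (1 point per gene, filled where adjusted p is under 0.05), with the median of each list as a bar and that of all genes tested (0.19) as a dashed line. Cholesterol synthesis (median 1.65) and ER chaperones (1.33) lie farthest to the right, and fasting-induced genes (−0.45) farthest to the left with no gene past the threshold.

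ER chaperones and folding enzymes held the most rises of the 26 lists. All 22 genes of this list had a positive log2 fold change, with a median of 1.33 (1.09 after scaling), and 13 rose. Of all genes tested, 72.5% were positive and 1.52% rose, the shares to set beside the counts of this and later lists. *Hspa5*, the ER chaperone of the Hsp70 family and the sensor of unfolded protein that holds the stress receptors inactive, was at 183, 306, and 274 RPKM in fasted replicates 1, 2, and 3 and at 1336, 956, and 1693 RPKM in refed replicates 1, 2, and 3, the order in which values are given throughout. Each refed liver was thus above the highest fasted one by a factor of more than 3 (means 254 ± 63.4 and 1329 ± 369 RPKM, SD, n = 3, log2 fold change 2.37, SE 0.28, adjusted p = 0.00842). *Hsp90b1*, its partner of the Hsp90 family, was at 193, 199, and 222 RPKM in fasted and 890.0, 583, and 1045 in refed liver (log2 fold change 1.99, SE 0.24, adjusted p = 0.00842). *Hyou1*, a nucleotide exchange factor for the *Hspa5* protein, was at 14.8, 14.2, and 16 RPKM in fasted and 126, 70.3, and 172 in refed liver (log2 fold change 2.86, SE 0.29, adjusted p = 0.00356). For each of *Hsp90b1* and *Hyou1* the 3 fasted livers lay close together, and the refed livers spread more, with replicate 2 lowest.

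*Creld2*, an ER protein with disulfide isomerase activity, had the largest log2 fold change of the 198 genes at 3.85 (SE 0.51, adjusted p = 0.0105), from 16, 34.6, and 29.6 RPKM in fasted to 469, 195, and 603 RPKM in refed liver. *Sdf2l1*, a partner of ER co-chaperones, went from 6.74, 32.7, and 25.4 RPKM to 304, 197, and 288 RPKM (log2 fold change 3.77, SE 0.61, adjusted p = 0.0141). *Manf*, an ER-resident and secreted protein that binds *Hspa5* protein, went from 38, 141, and 109 RPKM to 612, 437, and 734 RPKM (log2 fold change 2.78, SE 0.51, adjusted p = 0.023). In all 3 genes fasted replicate 1 was the lowest library and refed replicate 2 the lowest of the refed group. The groups did not overlap, as in all 198 altered genes. The other rises of the list were the disulfide isomerases *Pdia4* (1.83 on the log2 scale), *Pdia3* (1.77), *Pdia6* (1.57), and *Txndc5* (1.08), the *Hspa5* co-chaperones *Dnajb11* (1.73) and *Dnajc3* (1.12), and the lectin chaperone *Calr* (1.54). Of the 9 genes of the list that did not pass the test, the oxidase genes *Ero1l* (0.45, adjusted p = 0.391) and *Ero1lb* (0.82, adjusted p = 0.211) and the lectin chaperone *Canx* (0.84, adjusted p = 0.0938) are examples, with log2 fold changes given first. Between 5 and 13 genes of the list were called when 1 of the 12 libraries was left out (5 without refed replicate 3, and 6 without refed replicate 1 or fasted replicate 2), 9 without both libraries that stood apart, and 5 after scaling.

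**Figure D3:**
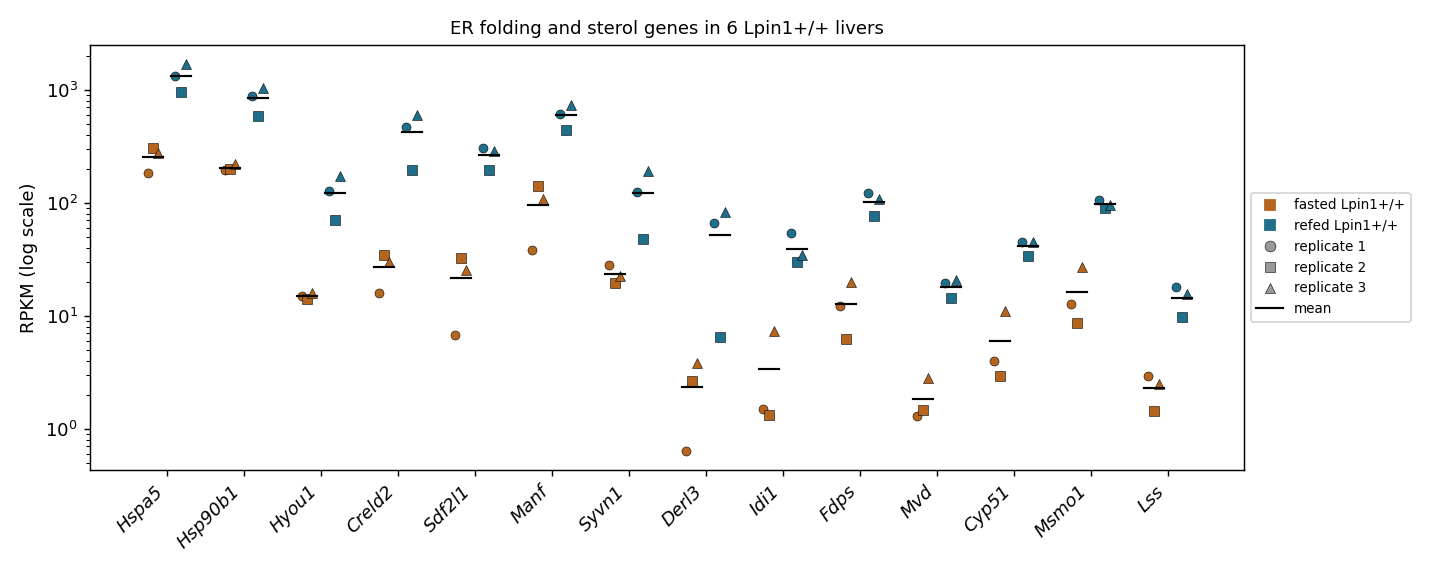
RPKM (log scale) of 8 ER folding and degradation genes and 6 sterol synthesis genes in each of the 6 *Lpin1*+/+ libraries, with color for feeding state, shape for replicate number, and a bar for the mean of each group. The 14 genes are all among the 198 altered genes, none of which overlaps between fasted and refed libraries (18.1% of all genes tested do not). *Hspa5* goes from 183 to 306 RPKM in fasted to 956 to 1693 RPKM in refed liver.

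Promoters of these genes are known for the ER stress element, the site at which ATF6 and XBP1 act together with the CCAAT-binding factor NF-Y. Its letters, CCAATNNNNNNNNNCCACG, were searched on both strands of the RefSeq promoter windows (GRCm38.p6, 250 bases before to 50 after each gene's start), which were found for 9118 of the genes tested, 145 of the 175 rises, and 20 of the 23 falls. They stood in the windows of 16 genes in all (0.175%), of which 10 were among the rises (*Alg12*, *Calr*, *Creld2*, *Derl3*, *Dnajc3*, *Hnrnpa3*, *Hsp90b1*, *Hspa5*, *Pdia6*, and *Syvn1*), or 6.9% of the rises with a window, and 0 among the falls. Of the 19 ER chaperone genes with a window, 8 (42.1%) held the element, *Canx* and *Ero1lb* without a call among them. The window of *Hsp90b1* held 2. A match is a description of letters and not of a bound site. Among the sites of these windows, 8 are shown with 10 flanking bases on each side, read on the strand of the element, with the letters of the element in capitals, since these letters, rare over all windows, recur in the windows of *Hspa5*, *Creld2*, *Derl3*, and other ER genes that rose. *Hsp90b1* is shown with the site farther from its start.
*Hspa5*, chr2:34772025-34772043, + strand: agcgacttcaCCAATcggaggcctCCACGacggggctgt
*Hsp90b1*, chr10:86705638-86705656, − strand: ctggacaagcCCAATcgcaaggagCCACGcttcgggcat
*Creld2* and *Alg12*, chr15:88819520-88819538, − strand: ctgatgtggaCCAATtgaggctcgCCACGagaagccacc
*Derl3*, chr10:75893242-75893260, − strand: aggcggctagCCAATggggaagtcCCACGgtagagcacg
*Calr*, chr8:84847075-84847093, + strand: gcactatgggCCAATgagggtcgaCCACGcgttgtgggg
*Dnajc3*, chr14:118937827-118937845, + strand: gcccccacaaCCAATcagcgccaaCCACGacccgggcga
*Pdia6*, chr12:17266491-17266509, + strand: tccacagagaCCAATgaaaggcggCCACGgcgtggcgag
*Syvn1*, chr19:6046532-6046550, + strand: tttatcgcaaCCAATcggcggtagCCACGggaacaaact

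*Creld2* and *Alg12*, a mannosyltransferase of N-glycan synthesis, lie head to head on chromosome 15 (GENCODE M21, *Creld2* from 88819646 to 88826683 on the + strand and *Alg12* from 88805244 to 88819318 on the − strand), and the element between them is in the window of both. *Alg12* rose as well, from 3.12, 4.39, and 4.06 RPKM in fasted to 12.3, 10.6, and 11.8 RPKM in refed liver (log2 fold change 1.38, SE 0.21, adjusted p = 0.012), and was named after its value was seen. In *Hspa5* the element lies 65 to 47 bases before the RefSeq start. The 250 bases before that start (chr2:34771840-34772089, + strand) are shown whole, with the element in capitals, because *Hspa5* is the standard reporter of ER stress.
*Hspa5* promoter: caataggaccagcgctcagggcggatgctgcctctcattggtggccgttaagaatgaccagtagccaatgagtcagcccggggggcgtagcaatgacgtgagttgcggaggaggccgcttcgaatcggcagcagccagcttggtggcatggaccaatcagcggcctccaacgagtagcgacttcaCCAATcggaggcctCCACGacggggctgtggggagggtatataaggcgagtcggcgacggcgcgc

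The letters of 6 other motifs were searched in the same windows on both strands, and those that hold CACG can overlap each other. The second form of the ER stress element, ATTGGNCCACG, was in 8 windows (0.0877%), of which 1 belonged to a rise (*Dnajb11*). The sterol response element in its classical letters, ATCACCCCAC, was in 6 windows (0.0658%), none of them of an altered gene. The palindromic E-box CACGTG was in 26 windows of rises (17.9%) and in 11.9% of all windows, and the cAMP response element TGACGTCA in 9 (6.21%) and 3.52%. The heat shock element GAANNTTCNNGAA was in 50 windows (0.548%), none of them of an altered gene. The metal response element (TGCACNC or TGCGCNC) was in 9 of the 20 windows of falls, those of *Mt1* and *Mt2* among them, in 54 windows of rises (37.2%), and in 39.8% of all windows.

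Degradation, entry, and export of ER proteins followed with fewer altered genes. Of 18 genes of ER-associated degradation, 15 had a positive log2 fold change (median 0.44) and 2 rose. *Syvn1*, the ubiquitin ligase at the center of this pathway, was at 28.3, 19.6, and 22.4 RPKM in fasted and 124, 47.8, and 191 in refed liver (log2 fold change 2.13, SE 0.43, adjusted p = 0.033). *Derl3*, a membrane protein of the retrotranslocation channel, was at 0.64, 2.63, and 3.78 RPKM in fasted and 66.3, 6.53, and 82.6 in refed liver (log2 fold change 3.51, SE 0.74, adjusted p = 0.0381). In refed replicate 2 *Derl3* was far below the other refed livers and close to the highest fasted one. None of the list was called after scaling, or in 8 of the 12 fits that left out 1 library, fasted replicate 1, 2, or 3 and refed replicate 1 or 3 of *Lpin1*+/+ among those left out.

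Of 26 genes of protein entry into the ER and N-glycosylation, 25 were positive (median 0.89) and 6 rose. *Srprb*, a subunit of the receptor of the signal recognition particle, was at 11.7, 14.2, and 16.1 RPKM in fasted and 32.8, 39.9, and 48.9 in refed liver (log2 fold change 1.46, SE 0.21, adjusted p = 0.012). *Rpn1*, of the oligosaccharyltransferase, was at 38.3, 54.4, and 58.6 and 105, 151, and 139 RPKM (log2 fold change 1.38, SE 0.22, adjusted p = 0.0127). In both, the lowest refed liver was well above the highest fasted one. The other rises were *Ssr3* and *Ssr1* of the translocon-associated complex (1.00 and 0.87 on the log2 scale), the signal peptidase subunit *Spcs3* (0.93), and the catalytic oligosaccharyltransferase subunit *Stt3a* (0.90). After scaling, none of these 6 passed the test (adjusted p = 0.0946 for *Srprb* and 0.15 for *Spcs3*), the list median was 0.65, and 0 to 8 genes were called with 1 library left out.

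In the list of ER to Golgi transport, 24 of 26 genes were positive (median 0.55), against 72.5% of all genes tested, and 1 rose. This was *Sec23b* of the COPII coat, at 11, 7.5, and 8.76 RPKM in fasted and 28.6, 22.6, and 43.9 in refed liver (log2 fold change 1.66, SE 0.25, adjusted p = 0.012). *Sec23b* passed the test in 11 of the 12 fits that left out 1 library, in which 0 to 3 genes of the list were called. After scaling, 0 were called (list median 0.31, adjusted p = 0.0528 for *Sec23b*). The cargo lectin *Lman2* was at 99.6, 96.1, and 121 and 159, 155, and 177 RPKM, with an adjusted p of 0.0928. Among 18 sensors and effectors of the unfolded protein and integrated stress responses, 3 rose. *Xbp1*, the factor activated by splicing in ER stress, was at 61.6, 75.5, and 99 RPKM in fasted and 246, 171, and 178 in refed liver (log2 fold change 1.33, SE 0.24, adjusted p = 0.0196). *Ddit3*, a transcription factor induced late in ER stress, was at 5.57, 7.97, and 10.9 and 24.5, 42.7, and 20.7 RPKM (log2 fold change 1.70, SE 0.33, adjusted p = 0.0299), and *Atf6b*, a relative of *Atf6*, at 12.9, 9.3, and 11.8 and 27.3, 22.9, and 25.2 RPKM (log2 fold change 1.09, SE 0.22, adjusted p = 0.033). Of the others, 12 of 18 being positive in all, *Atf3*, a target of *Atf4*, was at 1.38 (adjusted p = 0.0753), *Atf4* itself at 0.25 (0.636), and its targets *Trib3*, *Chac1*, and *Asns* at −0.99, −1.09, and −0.28 (0.196, 0.574, and 0.861). None of the 18 genes was called after scaling, and the list median went from 0.45 to 0.25. With 1 library left out, 0 to 4 of the genes were called, and 0 without both libraries that stood apart. *Xbp1* passed the test in 9 of the 12 fits that left out 1 library, and *Ddit3* and *Atf6b* in 4 each. *Ddit3* was highest in refed replicate 2 and had an adjusted p of 0.113 without both libraries.

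Further groups of the secretory pathway were put together after their values were seen and are given as a description. Of 32 genes that make the N-glycan precursor, 5 rose (median 0.31), with *Gmppb*, a subunit of the enzyme that makes GDP-mannose, at 6.47, 12.6, and 10.9 RPKM in fasted and 43.3, 35.7, and 63.8 in refed liver (log2 fold change 2.15). Its partner subunit *Gmppa* (1.05), *Alg12*, *Alg3* (0.71), and the dolichol synthesis gene *Nus1* (0.75) were the others. Of 8 genes of UFM1 conjugation, a ubiquitin-like modification at the ER surface, 3 rose. Among these were the ligase *Ufl1* (9.14, 7.35, and 8.04 RPKM in fasted and 21.4, 15.2, and 20.03 in refed liver, log2 fold change 1.11) and its partner *Cdk5rap3* (0.82). Of 9 p24 cargo receptors, *Tmed3* (1.89) and *Tmed9* (1.33) rose and *Tmed5* fell, from 41.9, 36.6, and 40.2 RPKM to 24.1, 23, and 23.8 RPKM (log2 fold change −0.72, SE 0.14, adjusted p = 0.0271). After scaling, 0 genes of the N-glycan list (median 0.08) and 0 of the UFM1 list were called, and 1 of the p24 list. With 1 library left out, the counts were 0 to 7 (0 without refed replicate 3), 1 to 3, and 0 to 3.

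Cholesterol synthesis had the highest median of the 26 lists. All 20 genes had a positive log2 fold change (median 1.65, 1.43 after scaling), and 9 rose. Along the pathway, the early enzyme *Hmgcs1* rose (1.85 on the log2 scale). *Mvd*, which makes isopentenyl diphosphate, was at 1.29, 1.45, and 2.78 RPKM in fasted and 19.3, 14.2, and 20.8 in refed liver (log2 fold change 2.77, SE 0.27, adjusted p = 0.00356). *Idi1*, the isomerase of that product, was at 1.5, 1.31, and 7.39 RPKM in fasted and 53.6, 29.9, and 34.5 in refed liver (log2 fold change 3.42, SE 0.68, adjusted p = 0.0307). Fasted replicate 3 was the highest of its group for *Idi1*, and the lowest refed liver was still 4 times as high.

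*Fdps*, which makes farnesyl diphosphate, was at 12.3, 6.28, and 19.8 RPKM in fasted and 121, 75.9, and 107 in refed liver (log2 fold change 2.99, SE 0.47, adjusted p = 0.0127). Among the enzymes that are specific to sterols, the squalene synthase *Fdft1* rose by less (1.23) than the lanosterol synthase *Lss*, which was at 2.95, 1.44, and 2.51 RPKM in fasted and 18.1, 9.69, and 15.5 in refed liver (log2 fold change 2.22, SE 0.32, adjusted p = 0.012), although that order of the values was not tested. The lanosterol demethylase *Cyp51* was at 4.0, 2.91, and 11.1 and 45.3, 33.5, and 45.2 RPKM (log2 fold change 2.76, SE 0.51, adjusted p = 0.0231). *Msmo1*, the next demethylation enzyme, was at 12.7, 8.7, and 27.3 and 106, 89.7, and 95.1 RPKM (log2 fold change 2.65, SE 0.43, adjusted p = 0.0147). The 3 refed livers lay close together for both *Cyp51* and *Msmo1*, and fasted replicate 3 was again the highest fasted library. *Sqle*, the squalene epoxidase, had the largest log2 fold change of the list at 3.79, with an adjusted p of 0.0674. The late enzymes *Tm7sf2* (0.01), *Ebp* (0.01), and *Sc5d* (0.34) lay near the median of all genes, with adjusted p from 0.487 to 0.989. With 1 library left out, 1 to 12 genes of the list were called (1 without fasted replicate 2, and 2 without refed replicate 1 or 3), 5 without both libraries that stood apart, and 6 after scaling.

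Among 16 genes of sterol sensing, uptake, and efflux, 3 rose. *Stard4* among them, a cytosolic sterol transfer protein, was at 5.84, 3.45, and 7.71 RPKM in fasted and 20.2, 12.2, and 21.5 in refed liver (log2 fold change 1.52, SE 0.29, adjusted p = 0.0265). After scaling, and without fasted replicate 2, refed replicate 1 or 3, or refed *Lpin1*-/- replicate 2 or 3, 1 gene of the list was called, and *Stard4* had an adjusted p of 0.0813 after scaling. The regulators *Srebf2* (1.10, adjusted p = 0.0737) and *Insig1* (1.60, adjusted p = 0.062) did not pass the test. *Insig2*, a form that insulin represses, was at −1.16 (adjusted p = 0.275), and the sterol exporters *Abcg5* and *Abcg8* were at −0.46 and −0.47 (adjusted p = 0.411 and 0.618).

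The genes that are commonly read as markers of feeding gave a mixed picture. Of 15 genes of glycolysis and glucose uptake 1 rose, and the list had a median of 0.13 against 0.19 for all genes (−0.11 after scaling). *Pfkfb3*, of the regulatory enzyme of glycolysis, was at 8.1, 0.535, and 1.01 and 13.2, 3.85, and 7.71 RPKM (adjusted p = 0.391), with fasted replicate 1 above refed replicates 2 and 3. Of 15 genes of de novo lipogenesis (median 0.35, 0.14 after scaling) 1 rose. This was *Thrsp*, a nuclear protein of lipogenic tissues, at 13.8, 31.9, and 25.6 RPKM in fasted and 64, 126, and 416 in refed liver (log2 fold change 2.68, SE 0.58, adjusted p = 0.045), with refed replicate 3 more than 3-fold above the next liver. *Thrsp* had an adjusted p of 0.149 after scaling and passed the test in 2 of the 12 fits that left out 1 library. *Fasn*, the fatty acid synthase, was at 10.3, 3.31, and 4.5 and 19.8, 13.6, and 18.9 RPKM without overlap of the groups, with a log2 fold change of 1.50 and an adjusted p of 0.109, which was 0.0467 without fasted replicate 1 and refed replicate 2. *Srebf1* was at 12.7, 12.9, and 14.1 RPKM in fasted and 16, 49.8, and 44.3 in refed liver (adjusted p = 0.271), and refed replicate 1 was close to the fasted values.

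**Figure D4:**
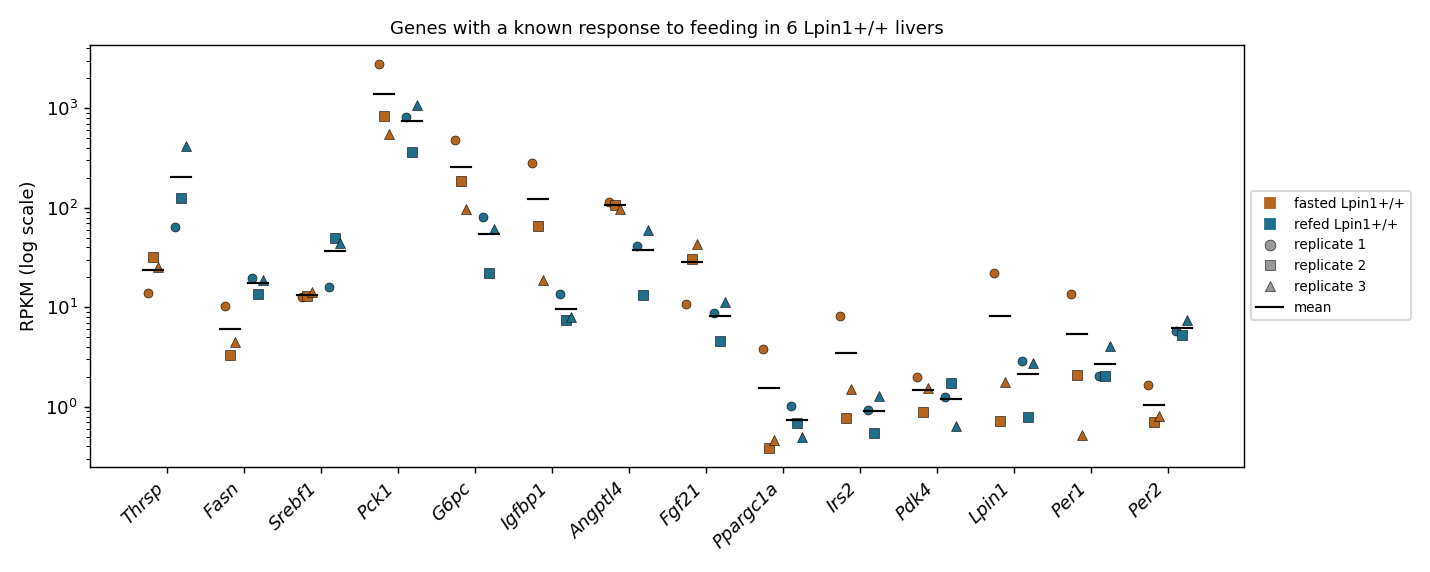
RPKM (log scale) of 14 genes with a known response to feeding or time of day in each of the 6 *Lpin1*+/+ libraries, with color for feeding state, shape for replicate number, and a bar for the mean. *Thrsp* and *Per2* passed the test, and fasted replicate 1 is the highest of the 6 libraries for *Pck1*, *G6pc*, *Igfbp1*, *Irs2*, *Ppargc1a*, *Lpin1*, and *Per1*.

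None of the genes of the fast passed the test. *Igfbp1*, which insulin represses, was at 283, 65.6, and 18.8 RPKM in fasted and 13.5, 7.45, and 7.91 in refed liver, with a log2 fold change of −2.80 (SE 1.02, adjusted p = 0.242). *G6pc*, the last enzyme of glucose release, was at 479.6, 187, and 98.1 and 80.6, 22.3, and 60.7 RPKM (−2.08, adjusted p = 0.199). Both genes were lower in each refed liver than in each fasted one, and the fasted values spread widely, highest in replicate 1 and lowest in replicate 3 for both. *Pck1*, of the first committed step of gluconeogenesis, was at 2802, 839, and 549 and 812, 363, and 1083 RPKM (adjusted p = 0.735), and the groups overlapped. *Angptl4*, a fasting-induced inhibitor of lipoprotein lipase, was at 115, 107, and 97.7 and 41.1, 13.2, and 59.3 RPKM (−1.70, adjusted p = 0.099). *Fgf21*, a fasting hormone, was at 10.8, 31, and 43.6 and 8.86, 4.55, and 11.4 RPKM (−1.54, adjusted p = 0.262). For *Fgf21*, fasted replicate 1 was the lowest fasted library and below refed replicate 3.

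The coactivator gene *Ppargc1a* was at 3.78, 0.389, and 0.461 and 1.01, 0.686, and 0.501 RPKM, and the insulin receptor substrate gene *Irs2* at 8.21, 0.772, and 1.51 and 0.925, 0.545, and 1.28 RPKM. *Pdk4*, which shuts off pyruvate oxidation, was at 1.98, 0.898, and 1.55 and 1.25, 1.75, and 0.637 RPKM. *Lpin1*, which glucocorticoids induce in the fast, was at 22, 0.726, and 1.76 RPKM in fasted and 2.92, 0.784, and 2.76 in refed *Lpin1*+/+ liver (log2 fold change −0.69, adjusted p = 0.72). In these 4 genes the groups overlapped, and in each fasted replicate 1 was the highest of the 6 libraries, by a factor of 5 or more over the other fasted livers in *Irs2*, *Ppargc1a*, and *Lpin1*. Of all 11507 genes tested, 1594 were at an unadjusted p under 0.05. Of the 21 fasting-induced genes, 3 were, 17 had a negative log2 fold change (median −0.45, −0.65 after scaling), and 0 fell. Their negative sign was shared by 8 of 10 genes of gluconeogenesis (median −0.34), where *Fbp1* had an adjusted p of 0.364, and glycogen metabolism had a median of 0.01, with *Phkg2* at 0.33 (adjusted p = 0.335) and *Pygl* at −0.34 (0.516). Without fasted replicate 1 the medians of the fasting-induced and gluconeogenesis lists were 0.04 and 0.10, so that the sign of these 2 medians depended on that liver. The median of all genes tested was 0.19 with no library left out.

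Lists of fatty acid, amino acid, and bile acid metabolism had medians below that of all genes and no gene past the threshold. Of 29 genes of fatty acid oxidation and ketogenesis, 23 were negative (median −0.17), and the median was 0.07 without refed replicate 2. The lowest p values were those of the carnitine carrier *Slc25a20*, at 107, 141, and 142 RPKM in fasted and 83.3, 58.5, and 89.2 in refed liver (−0.76, adjusted p = 0.148), and of the acyl-CoA synthetase *Acsl1* (−0.87, adjusted p = 0.43). Of 37 genes of amino acid catabolism, 31 were negative (median −0.29), with *Cth* of the transsulfuration pathway at 492, 324, and 299 and 262, 180.4, and 199.8 RPKM (−0.78, adjusted p = 0.208) and *Gnmt*, the glycine methyltransferase, at −0.68 (0.264). Of 8 genes of the urea cycle, 6 were negative (median −0.41), with *Ass1* at 2183, 1027, and 976 and 901, 548, and 754 RPKM (−0.85, adjusted p = 0.289) and *Asl* at −0.70 (0.364). Of 19 genes of bile acid synthesis and transport, 15 were negative (median −0.35), with the bile acid ligase *Slc27a5* at −0.73 (adjusted p = 0.106) and the repressor *Nr0b2* at 0.72 (0.315). At an unadjusted p under 0.05 were 1, 6, 1, and 3 genes of these 4 lists and 1594 of all 11507 genes tested. No gene of the 4 lists passed the test in any of the 12 fits that left out 1 library.

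The 23 falls were fewer and of mixed function. *Mt2* and *Mt1*, the zinc-binding metallothioneins that lie close together on chromosome 8, were among the 3 largest falls. *Mt2* was at 1555, 639, and 389 RPKM in fasted and 71, 141, and 48.1 in refed liver (log2 fold change −3.20, SE 0.60, adjusted p = 0.0248), and *Mt1* at 2299, 1008, and 675 and 198, 380.2, and 115 RPKM (log2 fold change −2.49, SE 0.53, adjusted p = 0.0384). Both were highest in fasted replicate 1, and among refed livers highest in replicate 2. *Mt2* passed the test in 8 and *Mt1* in 3 of the 12 fits that left out 1 library. Of the 12 genes of the list that holds them, 2 rose. These were the zinc importer gene *Slc39a10* (0.433, 0.147, and 0.238 and 1.92, 1.2, and 1.61 RPKM, log2 fold change 1.01, SE 0.15, adjusted p = 0.012) and *Slc39a7*, which moves zinc out of the ER (1.08, adjusted p = 0.0294). *Mtf1*, the metal sensor that acts on metallothionein promoters, was at 0.09 (adjusted p = 0.866). With 1 library left out, 0 to 4 genes of this list were called, and 3 after scaling.

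*Elovl3*, an elongase of saturated fatty acids with strong daily rhythm in liver, was at 156, 149.8, and 203 RPKM in fasted and 35.8, 13.9, and 42.6 in refed liver (log2 fold change −2.55, SE 0.40, adjusted p = 0.0124). *Rab30*, a small GTPase of the Golgi, was at 12.8, 23.5, and 31.7 and 6.1, 4.82, and 5.26 RPKM (log2 fold change −1.81, SE 0.35, adjusted p = 0.0297), and *Tcp11l2* at 19.1, 8.1, and 11.9 and 3.18, 2.79, and 3.12 RPKM (log2 fold change −1.73, SE 0.31, adjusted p = 0.0202). For each of *Rab30* and *Tcp11l2* the 3 refed livers lay close together and the fasted ones spread more. Of mitochondrial proteins, the carrier *Slc25a47* of liver mitochondria was at 647, 941, and 922 and 214, 208, and 458 RPKM (log2 fold change −1.59, SE 0.35, adjusted p = 0.0478). *Clpx*, the unfoldase of the matrix protease ClpXP, was at 162, 101, and 109 and 43.7, 41.3, and 37.6 RPKM (log2 fold change −1.55, SE 0.20, adjusted p = 0.0105) and passed the test in all 12 fits that left out 1 library. *Adck3*, a kinase-like protein of coenzyme Q synthesis, was at 141, 97.6, and 98.7 and 45.2, 30.01, and 38.9 RPKM (log2 fold change −1.54, SE 0.26, adjusted p = 0.0173). *Ccng2*, a cyclin known as a FoxO target, was at 12.4, 8.44, and 9.49 and 2.86, 4.9, and 1.84 RPKM (log2 fold change −1.45, SE 0.26, adjusted p = 0.0216). Of those 12 fits, *Elovl3* and *Adck3* passed the test in 10 each, *Tcp11l2* in 8, *Ccng2* in 7, *Rab30* in 5, and *Slc25a47* in 3. After scaling, *Rab30* and *Slc25a47* did not pass it (adjusted p = 0.0529 and 0.102). In a list of 14 mitochondrial chaperones and proteases chosen after the values were seen, *Clpx* and the co-chaperone *Grpel2* (−0.93) fell and the protease partner *Clpp* was at 0.36 (adjusted p = 0.55).

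Genes of the Cyp3a enzymes, P450s that oxidize many drugs and steroids, were among the falls and lie close together on chromosome 5. *Cyp3a11* was at 3454, 3579, and 3199 RPKM in fasted and 922, 1559, and 1689 in refed liver (log2 fold change −1.34, SE 0.30, adjusted p = 0.0494), *Cyp3a25* at 1025, 918, and 909 and 446, 462, and 505 RPKM (log2 fold change −1.01, SE 0.18, adjusted p = 0.021), and *Cyp3a59* at 43.5, 30.4, and 24.4 and 8.56, 10.8, and 6.8 RPKM (log2 fold change −1.78, SE 0.25, adjusted p = 0.0111). In the family of 7 tested members, grouped after the values were seen, 7 were negative and 4 fell, the other being *Cyp3a16* (−1.07). The groups did not overlap in any of the 7. Of all genes tested, 18.1% had no overlap and 1.72% were altered. The 4 became 1 (*Cyp3a59*) after scaling, 1 without both libraries that stood apart, and 1 without fasted replicate 2 or 3, refed replicate 1, 2, or 3, or refed *Lpin1*-/- replicate 3. *Cyp3a11* had an adjusted p of 0.1 after scaling and passed the test in 1 of the 12 fits that left out 1 library. Their sequences are closely related, so that values of single members are uncertain. *Cyp1a1*, the main target of the aryl hydrocarbon receptor, rose from 0.152, 0.218, and 0.286 RPKM to 3.1, 4.07, and 2.06 RPKM (log2 fold change 1.71, SE 0.24, adjusted p = 0.0111). The receptor gene *Ahr* was at 0.17 (adjusted p = 0.88) and its target *Tiparp* at 0.00 (0.999). *Cyp26a1*, which degrades retinoic acid, was among the largest rises, at 7.97, 3.82, and 2.29 RPKM in fasted and 62, 38.7, and 25.4 in refed liver (log2 fold change 2.95, SE 0.38, adjusted p = 0.0103), and was called in all 12 fits that left out 1 library.

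Some genes of ribosome assembly and RNA processing rose as well. Of 29 genes of ribosome biogenesis, 28 were positive (median 0.55) and 5 rose, against 72.5% positive and 1.52% risen of all genes tested. *Nop56*, a core protein of the methylation guides of ribosomal RNA, was at 6.94, 6.61, and 6.3 RPKM in fasted and 18.1, 14.8, and 18.8 in refed liver (log2 fold change 1.26, SE 0.18, adjusted p = 0.0111). The 3 fasted livers differed by less than 1 RPKM for *Nop56*, which passed the test in all 12 fits that left out 1 library. The others were its partner *Nop58* (0.93), the assembly factors *Ppan* (1.06) and *Wdr12* (0.82), and *Rrp9* (0.87) of the small subunit processome. Of 37 SR and hnRNP splicing factors and their kinases, 4 rose. *Tra2a* was at 5.64, 3.62, and 4.98 RPKM in fasted and 12.4, 9.24, and 12.3 in refed liver (log2 fold change 1.11, SE 0.20, adjusted p = 0.0212). *Srsf6* was at 31.3, 28, and 21.9 and 53.2, 48.1, and 50.3 RPKM (log2 fold change 0.89, SE 0.16, adjusted p = 0.0216), *Srsf2* at 47, 41.5, and 46 and 84.4, 78.4, and 76.8 RPKM (log2 fold change 0.82, SE 0.15, adjusted p = 0.0239), and *Hnrnpa3* at 2.62, 1.55, and 1.45 and 5.7, 3.7, and 4.49 RPKM (log2 fold change 0.98, SE 0.21, adjusted p = 0.0376). After scaling, none of these 9 genes passed the test. With 1 library left out 1 to 5 and 0 to 4 genes of the 2 lists were called (fewest in both without fasted replicate 2 or 3 or refed replicate 1 or 3). The medians of the lists after scaling were 0.34 and 0.13.

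Enzymes of polyamine and pyrimidine synthesis and of tRNA charging were grouped after their values were seen. *Odc1*, which makes the polyamine putrescine, was at 21.7, 25.6, and 35.7 RPKM in fasted and 81.9, 55.9, and 82.2 in refed liver (log2 fold change 1.38, SE 0.23, adjusted p = 0.0173). *Srm*, which makes spermidine from it, was at 14.6, 12.6, and 16.8 and 50.1, 47.1, and 106 RPKM (log2 fold change 2.04, SE 0.30, adjusted p = 0.012). Groups did not overlap in either, as in all 198 altered genes. *Cad*, of the first steps of pyrimidine synthesis, was at 1.61, 0.685, and 0.834 and 5.07, 3.55, and 6.4 RPKM (log2 fold change 1.55, SE 0.22, adjusted p = 0.0111), and the CTP synthase *Ctps* rose as well (1.04). Of 20 cytosolic aminoacyl-tRNA synthetases 19 were positive and 2 rose, *Wars* (1.30) and *Farsa* (0.80), against 72.5% and 1.52% of all genes tested. After scaling, 14 of the 20 were positive, and the calls became 0 of the synthetases, 0 of the polyamine enzymes, and 1 of the pyrimidine enzymes. With 1 library left out, at least 0, 0, and 1 of them were called. Proteasome subunits had 0 of 32 genes past the threshold (1 at an unadjusted p under 0.05), a median of 0.21 (−0.03 after scaling), and the lowest p for *Psmc5* (0.46, adjusted p = 0.346) and *Psmd5* (0.39, 0.364).

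Heat shock proteins outside the ER had a median of 0.90 (0.70 after scaling) and all 21 were positive, but 0 passed the test (14 at an unadjusted p under 0.05). *Hsp90aa1*, the inducible cytosolic Hsp90, was at 28.7, 13.2, and 18.1 RPKM in fasted and 157, 32.1, and 95.3 in refed liver (1.98, adjusted p = 0.0562). *Stip1*, which links Hsp70 to Hsp90, was at 29.5, 21.8, and 25.9 and 114, 38.2, and 76.8 RPKM (1.41, adjusted p = 0.0811). Refed replicate 2 was the lowest refed liver for both, and 7 genes of the list were called when it was left out, as many as without both libraries that stood apart.

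Tubulins, cytoplasmic actins, and the hepatocyte keratins were grouped after their values were seen. All 17 were positive (median 1.32) and 10 were among the rises. *Tubb5* was at 33.7, 16, and 23.8 RPKM in fasted and 70.7, 102, and 72.6 in refed liver (log2 fold change 1.74, SE 0.26, adjusted p = 0.012), *Actg1* at 15.2, 9.03, and 14.7 and 42.1, 83.3, and 44.5 RPKM (log2 fold change 2.01, SE 0.32, adjusted p = 0.0129), and *Krt8* at 66.5, 67.1, and 87.6 and 143, 256, and 181 RPKM (log2 fold change 1.35, SE 0.23, adjusted p = 0.0183). In these 3 genes refed replicate 2 was the highest library, the same liver that had the most macrophage markers and a cholangiocyte marker sum of 104 RPKM against 32.3 and 40.1 RPKM in the other refed livers. Stellate cell and fibroblast markers summed to 179, 76.7, and 171 RPKM in fasted and 210.3, 232, and 85.5 in refed libraries, with 10 of 11 positive, a median log2 fold change of 0.85 (0.70 after scaling), and none past the threshold (5 at an unadjusted p under 0.05). The part of those cells in the result was not tested. Without refed replicate 2, 6 genes of the group were called, and without both refed replicate 2 and fasted replicate 1, a choice made after seeing the data, 3. Without fasted replicate 2 the count was 1, without refed replicate 3 it was 2, and after scaling it was 2. Tubulin and actin genes are near-identical to other members and pseudogenes, so that single values are uncertain.

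Of 21 clock genes 1 rose. *Per2*, which responds to feeding time and peaks in the evening in liver, was at 1.64, 0.70, and 0.805 RPKM in fasted and 5.84, 5.3, and 7.41 in refed liver (log2 fold change 1.83, SE 0.28, adjusted p = 0.012). *Per3* was at 0.552, 0.215, and 0.374 and 0.789, 1.84, and 2.54 RPKM (0.93, adjusted p = 0.0692), also without overlap. *Per1*, which glucocorticoids and fasting signals induce, was at 13.6, 2.07, and 0.521 and 2.03, 2.03, and 4.09 RPKM (adjusted p = 0.935), with fasted replicate 1 above all others. *Dbp*, a direct target of CLOCK and BMAL1, had a log2 fold change of 1.95 (adjusted p = 0.237), and *Arntl*, the gene of BMAL1, of −1.04 (0.36).

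None of the 23 acute phase genes tested, 21 genes of insulin receptor signalling, and 16 immediate early genes passed the test. At an unadjusted p under 0.05 were 2, 2, and 5 of them, and their medians were 0.28, 0.06, and 0.34. That of the acute phase list was −0.53 without refed replicate 2. The genes of this list summed to 17919, 28550, and 20900 RPKM in fasted and 19867, 112252, and 15155.5 in refed libraries. Refed replicate 2 was thus far above all others, and the part of this load in the RPKM of other genes was not tested. The iron hormone gene *Hamp* was at 62.2, 1691, and 1032 RPKM in fasted and 2801, 4614, and 1272 in refed liver (2.41, SE 0.98, adjusted p = 0.293), where fasted replicate 1 was far below all others. The metalloreductase *Steap4* was at 32.1, 14.7, and 17.6 and 48.1, 74.1, and 26.9 RPKM (adjusted p = 0.284). The insulin signalling genes *Pik3r1* and *Ptpn1* had log2 fold changes of 0.85 and 0.76 (adjusted p = 0.223 and 0.328). *Atf3* was at 0.81, 0.466, and 0.858 and 2.53, 5.84, and 2.59 RPKM (1.38, adjusted p = 0.0753) and *Jund* at 53.4, 30.5, and 40.9 and 63.9, 95.7, and 56.9 RPKM (0.78, adjusted p = 0.211).

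The same feeding contrast in *Lpin1*-/- liver showed where the wild-type response differed. In *Lpin1*-/- liver 2382 genes were altered (20.7%), among them 109 of the 198 (55.1% of these and 4.58% of the 2382), 103 in the same direction. The difference between the responses, tested as the interaction, passed the threshold for 147 genes (1.28%), of which 16 were among the 198 (8.08%). In 15 of these 16, all rises in *Lpin1*+/+, the response was more positive in *Lpin1*+/+ than in *Lpin1*-/- liver, and the other was *Tmed5*. The 16 were chosen by their call in *Lpin1*+/+ liver, which favors this direction for rises, so that it is not a separate result. Sterol synthesis genes made up a part of them, with *Fdps*, *Mvd*, *Cyp51*, *Msmo1*, and *Fdft1*. *Tra2a* was another, and among those named after their values were seen were *Actg1*, *Ears2*, *Nrep*, *Nucb2*, *Slc16a6*, *Slc20a1*, and the predicted gene *Gm43738*. *Gm43738* (89081939 to 89101099) overlaps *Fdps* (89093588 to 89101959) on the − strand of chromosome 3, so that the 2 may not be separate results. *Msmo1* was at 58.5, 19.6, and 18.3 RPKM in fasted and 8.39, 7.83, and 9.65 in refed *Lpin1*-/- liver, a log2 fold change of −1.58 (adjusted p = 0.0259) against 2.65 in *Lpin1*+/+ (difference 4.23, SE 0.61, adjusted p = 0.0102). Refed *Lpin1*-/- livers were thus close to the lowest fasted *Lpin1*+/+ liver for *Msmo1*. The splicing factor *Tra2a* was at 11.1, 10.01, and 8.39 and 3.32, 3.47, and 2.72 RPKM in *Lpin1*-/- liver (difference 2.48, SE 0.28, adjusted p = 0.00379).

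Of the ER chaperone list, no gene passed the test of the difference, which does not show that the responses were equal. The list median was 1.33 in *Lpin1*+/+ and 0.60 in *Lpin1*-/- liver, where 9 of the 22 genes rose. The difference was 1.93 for *Creld2* (SE 0.72, adjusted p = 0.194), 2.16 for *Sdf2l1* (SE 0.86, adjusted p = 0.217), and 1.22 for *Hsp90b1* (SE 0.34, adjusted p = 0.102). *Hspa5* was at 322, 308, and 303 RPKM in fasted and 521, 854, and 801 in refed *Lpin1*-/- liver, with a difference of 1.19 (SE 0.40, adjusted p = 0.156), and *Hyou1* at 5.72, 9.71, and 6.74 and 48.9, 64.2, and 61.4 RPKM, with a difference of 0.03 (SE 0.41, adjusted p = 0.976). The difference of *Mt2* was −1.15 (SE 0.84, adjusted p = 0.48). With 1 library left out, 30 to 191 genes passed the test of the difference, and *Msmo1* and *Tra2a* were among them in all 12 such fits.

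**Figure D5:**
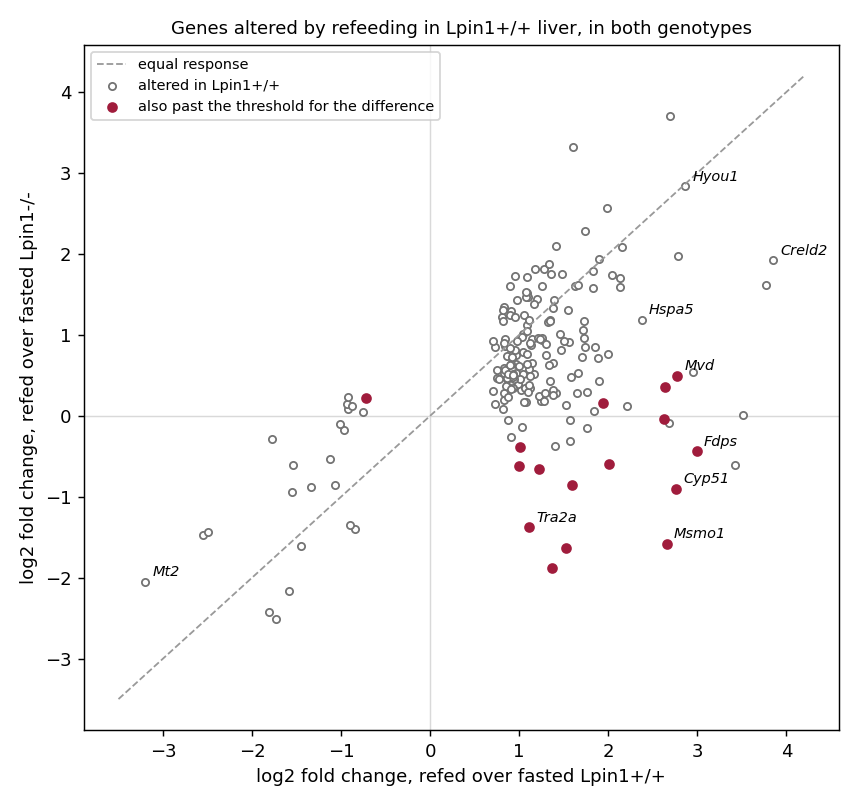
Log2 fold change of RPKM + 1, refed over fasted, in *Lpin1*+/+ (horizontal) and *Lpin1*-/- liver (vertical) for the 198 genes altered in *Lpin1*+/+ liver, filled for the 16 whose responses also differed between genotypes. *Msmo1* and *Tra2a* lie below the line at 0 in *Lpin1*-/- liver at −1.58 and −1.37. *Hyou1* lies on the line of equal response, and *Creld2* and *Hspa5* lie below that line.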

How the data were processed

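The libraries were stranded TruSeq libraries of liver RNA, 1 per mouse, sequenced as 69-base paired ends with 12 libraries pooled over 6 lanes. The authors aligned reads to GRCm38 with HISAT2 2.0.5, counted them per gene with HTSeq 0.6.0, and deposited RPKM per gene and library. The labels give about 150000000 reads per library. Whether counting used strand is not given in the sources used here, and the table holds no counts, so no count test was run. DESeq2 1.20.0 is among the tools of the submitters' processing notes.

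The 12 libraries (3 per group) were fitted together as 4 groups with limma 3.58.1 in R 4.3.3 on log2(RPKM + 1), with a variance trend, for 11507 of 22456 genes, those whose mean over the libraries reached 0.5 RPKM. Fold changes are on that scale, which understates the change of low genes. The adjusted p (Benjamini-Hochberg) threshold was 0.05. The refed minus fasted contrast was taken in *Lpin1*+/+ liver, and its difference from that in *Lpin1*-/- liver is the interaction. P-values measure the spread between mice.

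The members, gene lists, and tests were chosen with earlier results of these data known. Genes named were the 10 largest rises and 10 largest falls among altered genes without overlap, up to 6 altered members of each list by size of change (or the members of lowest p, up to 2, where fewer than 2 were altered), and 13 feeding genes. Others were named after their values were seen. Some genes that the rule names are counted in totals and lists but not reported here. Alternatives were other pseudocounts and filters, scaling, the 6 *Lpin1*+/+ libraries alone, no trend, array weights, a replicate block, and leaving out each library. The deposited tables of skipped exons and enriched terms were not used. The script was tested on simulated data. Figures were drawn with Python 3.11.15 and matplotlib 3.10.9.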

Additional observations from a re-analysis of the deposited data

Results flagged for a closer look

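For 7 of the genes chosen by the fixed naming rule the feeding response differed between genotypes by the test of the interaction, and for each the response was more positive in *Lpin1*+/+ than in *Lpin1*-/- liver (limma, log2 of RPKM + 1, adjusted p under 0.05). The rule named these 7 by their response in *Lpin1*+/+ liver, which was positive in each, and this favors that direction.

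Among sterol genes, the difference was 4.23 for *Msmo1* (adjusted p = 0.0102), 3.66 for *Cyp51* (0.0338), 3.43 for *Fdps* (0.0336), and 2.28 for *Mvd* (0.019). With 1 library left out, the highest adjusted p was 0.0394 for *Msmo1* and reached 0.11 for *Cyp51*, 0.11 for *Fdps*, and 0.0612 for *Mvd*.

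The difference was 2.48 for the splicing factor *Tra2a* (adjusted p = 0.00379, highest 0.0241 with 1 library left out). For the immediate early genes *Atf3* and *Jund* it was 3.88 (adjusted p = 0.00664, highest 0.0311) and 2.41 (adjusted p = 0.0157, highest 0.0595). *Atf3* was at 7.69, 12.7, and 20.9 RPKM in fasted and 1.85, 1.06, and 1.44 in refed *Lpin1*-/- liver, and *Jund* at 147, 225, and 183 and 72.5, 53.4, and 50.4 RPKM, so that refed livers were lower than fasted ones in *Lpin1*-/-, while neither gene passed the test of feeding in *Lpin1*+/+ liver.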

How the results depend on the processing

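The 198 altered genes became 50 after median ratio scaling, 0 in a fit of the 6 *Lpin1*+/+ libraries alone, and 1842 with limma array weights, and 23 to 229 when 1 of the 12 libraries was left out. A pseudocount of 0.1 gave 180, no filter 168, a mean of at least 5 RPKM 189, and no variance trend 191. The 147 genes whose response differed between genotypes became 83 with no filter, 321 after scaling, 2539 with array weights, 83 without both libraries that stood apart (an alternative chosen after seeing the data, which left 152 altered genes), and 30 to 191 with 1 library left out. With the replicate number as a block the counts were 93 and 81, and with the block and scaling 22 and 177. Deviations of same-numbered fasted and refed *Lpin1*+/+ livers correlated at 0.251, 0.0833, and −0.016, so that the numbers were not read as pairs. Of 91 named genes 55 passed the test, 22 of these after scaling and 11 in all 12 fits that left out 1 library (among them *Clpx*, *Creld2*, *Cyp1a1*, *Cyp26a1*, *Cyp3a59*, *Hsp90b1*, *Hspa5*, *Hyou1*, *Mvd*, and *Nop56*). No named gene past the threshold changed sign, and 5 of those not past it did in some fit. The causes of these changes were not tested. With 3 livers per group and no counts, the precision of low values is unknown.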

Other observations

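Some of the altered genes outside the lists are given here, named after their values were seen. *Tsku*, a secreted protein of the liver, was at 30.5, 7.45, and 9.88 RPKM in fasted and 77.9, 76.3, and 127 in refed *Lpin1*+/+ liver (log2 fold change 2.69, SE 0.55, adjusted p = 0.0331). *Tfrc*, the transferrin receptor, was at 8.0, 3.58, and 3.51 and 12.5, 13.2, and 13.3 RPKM (log2 fold change 1.29, SE 0.27, adjusted p = 0.0347). *Slc20a1*, a sodium-dependent phosphate transporter, was at 8.47, 3.98, and 4.21 and 13, 15.7, and 17.2 RPKM (log2 fold change 1.37, SE 0.24, adjusted p = 0.0196). The refed livers were above the fasted ones in each case, and the groups did not overlap in any of the 198 altered genes.

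*Rcan1*, an inhibitor of calcineurin, was at 6.1, 4.4, and 5.7 RPKM in fasted and 23.8, 48.4, and 16.8 in refed liver (log2 fold change 2.14, SE 0.43, adjusted p = 0.031). *Bcl3*, a partner of NF-κB, was at 6.79, 7.83, and 9.75 and 24.5, 41.9, and 23.8 RPKM (log2 fold change 1.73, SE 0.33, adjusted p = 0.0251). *Nucb2*, the precursor of nesfatin, was at 0.851, 0.958, and 1.43 and 5.49, 6.15, and 4.19 RPKM (log2 fold change 1.59, SE 0.22, adjusted p = 0.0111). For *Rcan1*, *Bcl3*, and *Nucb2* alike the highest library was refed replicate 2, which also had the most macrophage and T cell markers. The part of those cells in these values was not tested.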
